A study of Homo sapiens with 19 samples.

Results

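The nuclear genes of the oxidative phosphorylation system were measured in PMA-differentiated THP-1 cells with and without vitamin C (vit C). The members were every gene name on the array that began with NDUFA, NDUFB, NDUFC, NDUFS, NDUFV, UQCR, ATP5, COX4, COX5, COX6, COX7 or COX8, or that was SDHA, SDHB, SDHC or SDHD. The rule gave 86 of 31033 gene names, measured by 132 of 50238 probes. Among them, 37 encode subunits of complex I, 4 of complex II, 7 of complex III, 11 of complex IV and 15 of complex V, and 7 more encode tissue-restricted or alternative isoforms of complex IV subunits. The other 5 shared only the start of the name or act beside the complexes. These were the complex I assembly factors NDUFAF1 and NDUFA12L, COX7A2L, which helps to join complexes III and IV, ATP5S, a factor tied to ATP synthase, and COX4NB, a neighbour of the COX4 gene that is not a subunit. Names are those of the array design.

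Oxidative phosphorylation takes place in the inner membrane of the mitochondrion. Complexes I and II pass electrons from NADH and succinate to ubiquinone, complex III passes them on to cytochrome c, and complex IV hands them to oxygen. Complexes I, III and IV pump protons, and complex V, the ATP synthase, uses the return of those protons to make ATP. Most subunits are nuclear genes whose products are imported, and a small core is encoded in mitochondrial DNA and was not covered by the rule. In macrophages the balance between this pathway and glycolysis is known to differ between activation states.

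THP-1 is a human monocytic leukaemia cell line that phorbol 12-myristate 13-acetate (PMA) turns into macrophage-like cells. Every culture, the untreated (UT) control included, was first differentiated with 30 nM PMA, given fresh medium and rested, and 0.1 mM vit C was then added to the treated cultures alone. Cells were collected 8, 24, 48 and 96 h later, and RNA that passed the study's integrity threshold was hybridised to 19 one-colour arrays. The UT groups held 2, 3, 2 and 3 arrays at 8, 24, 48 and 96 h, and the vit C groups held 3, 2, 2 and 2. All arrays came from a single cell line, so the p-values measure the spread between cultures of that line and not between donors.

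Levels are log2 of the processed signal minus the 75th percentile of that array, with the brightest probe standing for each gene, so a level is relative to the other genes of the array and cannot be set against that of another gene. That percentile ranged from 290.2 to 625.6 signal units over 17 arrays, and both vit C 96 h arrays were brighter, at 787.6 and 903.5. Between 57.5% and 72.8% of probes were well above background on each array, and none was saturated. Slide 1 held 8 UT arrays, and slide 2 held 6 vit C arrays together with replicates 2 and 3 of the UT 96 h group. Slides 3 and 4 held vit C arrays alone, so slide and treatment can be told apart only in part. Of 12 macrophage markers, 11 were on the array and 8 were well above background on every array, with HLA-DRA and MRC1 above it on none. Their summed level (linear scale, relative to the 75th percentile) was 307 to 475 on UT arrays and 313 to 459 on vit C arrays. Single markers did move. Their median log2 fold change (vit C minus UT) was -0.13, -0.4, -0.06 and -0.08 at 8, 24, 48 and 96 h, with 7, 9, 6 and 7 of 11 under 0, and ITGAM, an integrin chain, fell by 1.17 at 48 h (p adjusted over all genes, q = 0.00244 by limma). At 96 h the lowest fold change of a marker was -1.89. There 1 of the 11 fell by 1 or more with q of at most 0.05, beside 5.31% of all genes. By q alone 2 of the 11 were lower, beside 7.17%. In the effect averaged over the times, 3 of the 11 were lower and 2 higher at a q of at most 0.05, beside 7.85% and 5.27% of all genes. The part of these markers in the members' levels was not tested.

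Of the 86 members, 81 were well above background on all 19 arrays. COX4I2 was above it on 12 arrays, NDUFA4L2 on 5 and COX8C on 4, and COX7A1 and COX7B2 were above it on none. The 81 detected members varied less than the detected genes as a whole. From its lowest to its highest array, the median member spanned 0.97 log2 units, beside 1.58 for the 17292 genes detected on all arrays. A range over 1 was seen in 37 of 81 members, or 45.7%, against 85.3% of the detected genes. The median residual SD within groups was 0.17 for members and 0.26 for detected genes. Most members were bright, and genes of like brightness were not set beside them for range or SD.

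The first comparison asked whether vit C changed these genes at each time. A differentially regulated gene needed, by the study's thresholds, a log2 fold change of 1 or more in size and a p, adjusted by Benjamini-Hochberg over all genes (q, from limma), that did not exceed 0.05. No detected member met both at any of the 4 times. Of all 31033 genes, 0.412%, 1.21%, 2.8% and 7.03% were called at the successive times. Of the 86 members, 0, 1, 0 and 1 were. At an unadjusted p of at most 0.05, the members that were lower with vit C numbered 5, 2, 19 and 31 of 86 at 8, 24, 48 and 96 h (5.81%, 2.33%, 22.1% and 36%), and those that were higher numbered 1, 0, 0 and 0. The shares of all genes that were lower by this rule were 7.28%, 9.51%, 8.56% and 18.6%, and the shares that were higher were 5.23%, 6.73%, 7.27% and 6.63%. Since a culture was lysed as a whole, fewer cells of a type and less RNA per cell cannot be told apart.

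The call at 24 h and at 96 h was COX7A1, the heart and skeletal muscle isoform of subunit 7A, which was below background on every array. Its q was 0.0487 at 24 h and 0.046 at 96 h by limma, and no fold is given because neither group was measured. The 5158 genes below background on all arrays had a median log2 difference of -0.56 at 24 h and -0.91 at 96 h, with 90.7% and 88.6% of them under 0. The part of this background shift in the calls of COX7A1 was not tested.

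Most members had slightly lower levels with vit C, and in the fit without slide the medians were lowest at 48 and 96 h. The log2 fold change (vit C minus UT) had a median over the 86 members of -0.09, -0.07, -0.28 and -0.33 at 8, 24, 48 and 96 h. The medians of all genes were -0.05, -0.13, -0.02 and -0.15, and those of the genes detected on all arrays were -0.07, -0.01, -0.08 and -0.09. Members with a fold change under 0 numbered 56, 56, 71 and 79 of 86 (65.1%, 65.1%, 82.6% and 91.9%), beside 54.9%, 60.5%, 52% and 61.7% of all genes. Most members were bright, and in 2229 genes of like brightness (a mean level of at least 3.72, a bound chosen after seeing the data) the share under 0 was 67.5% at 48 h and 75.5% at 96 h. Among the 61 members in that range it was 90.2% and 96.7%, with medians of -0.29 and -0.36 beside -0.14 and -0.2. At 8 and 24 h the shares were close, at 65.6% and 62.3% of these members and 65.9% and 60.1% of these genes. The medians there were -0.09 and -0.06 beside -0.11 and -0.07. With the slide as a block in the fit the medians were -0.29, -0.24 and -0.38 at 8, 24 and 48 h, with 71, 70 and 70 of 86 members under 0. All genes were at -0.03, -0.1 and -0.02, so in that fit the early medians were closer to the one at 48 h. Only the UT 96 h group lay on both slides 1 and 2. That fit therefore took the slide difference from UT 96 h replicate 1 against replicates 2 and 3. A vit C 48 h array was alone on slide 3, so its median at 48 h rested on the other vit C 48 h array. These medians do not settle the size of the early effect. The 96 h effect could not be fitted with the slide block, because no slide held both arms at that time. Without UT 96 h replicate 3 the members under 0 at 96 h were 70 of 86. The scaling mattered most at 96 h. With quantile normalization the members' median there was -0.15, with 58 of 86 under 0 and all genes at -0.04, and with normexp background correction it was -0.25 with all genes at -0.4, so that by normexp the members were not lower than the genes as a whole. These counts describe the genes and were not tested as a list.

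Array by array, the members' level was taken as the median deviation of the detected members from their own mean over arrays. At 8 h it was 0.02 and 0.19 on UT arrays and -0.03, -0.04 and 0.07 on vit C arrays. At 24 h it was 0.04, 0 and 0.05 on UT arrays and -0.09 and 0.04 on vit C arrays. The arms overlapped at both early times. At 48 h it was -0.07 and 0.04 on UT arrays and -0.28 and -0.3 on vit C arrays. At 96 h it was 0.1, 0.24 and 0.4 on UT arrays and -0.02 and -0.19 on vit C arrays. The arms did not overlap at 48 or 96 h, and the highest UT 96 h array was replicate 3, on slide 2. Without both UT 96 h arrays of slide 2 the median fold change at 96 h was -0.24. The vit C 96 h arrays were also the 2 brightest of the series, and the part of brightness in that result was not tested. The summed level of the 12 measured markers of other cell types (linear scale, 3 of them, with CD3E and PECAM1 among these, above background on all arrays, and 5, with CD3D, KRT5, CDH5 and HBB among these, on none) also moved, with 37.6 and 39.6 on UT arrays and 29.7 and 30.2 on vit C arrays at 48 h, and 42.3 to 63.4 and 29.9 to 31.8 at 96 h. Single markers of the list did not all follow the sum, since 9 of 12 had a fold change above 0 at 48 h and 4 of 12 at 96 h. The part of these markers in the members' levels was not tested.

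Every vit C array was lower than every UT array of its time in 22, 12, 61 and 41 of 86 members at 8, 24, 48 and 96 h (25.6%, 14%, 70.9% and 47.7%). In all genes the shares were 24.3%, 18.1%, 28.9% and 26.2%, so the members lay near the background at 8 and 24 h and above it at 48 and 96 h. Members that were higher without overlap numbered 7, 4 and 4 at 8, 24 and 48 h, beside 14.8%, 12.1% and 21.8% of all genes. At 96 h they numbered 0, beside 3320 of the 31033 genes. Of the 81 detected members, 34 (42%) were lower without overlap at both 48 and 96 h, beside 11.2% of the genes detected on all arrays. In 35 of the 81 the fold change was under 0 at all 4 times and in 21 at 3 times. COX6B2, the testis isoform of subunit 6B, was the single detected member under 0 at no time, with fold changes of 0.08, 0.48, 0.36 and 0.47, none of which passed the test. A test of whether the vit C effect differed between the times (the interaction F test) passed for 0 of 86 members and for 1.22% of all genes, so no difference between early and late times was shown for any of them.

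**Figure D1:**
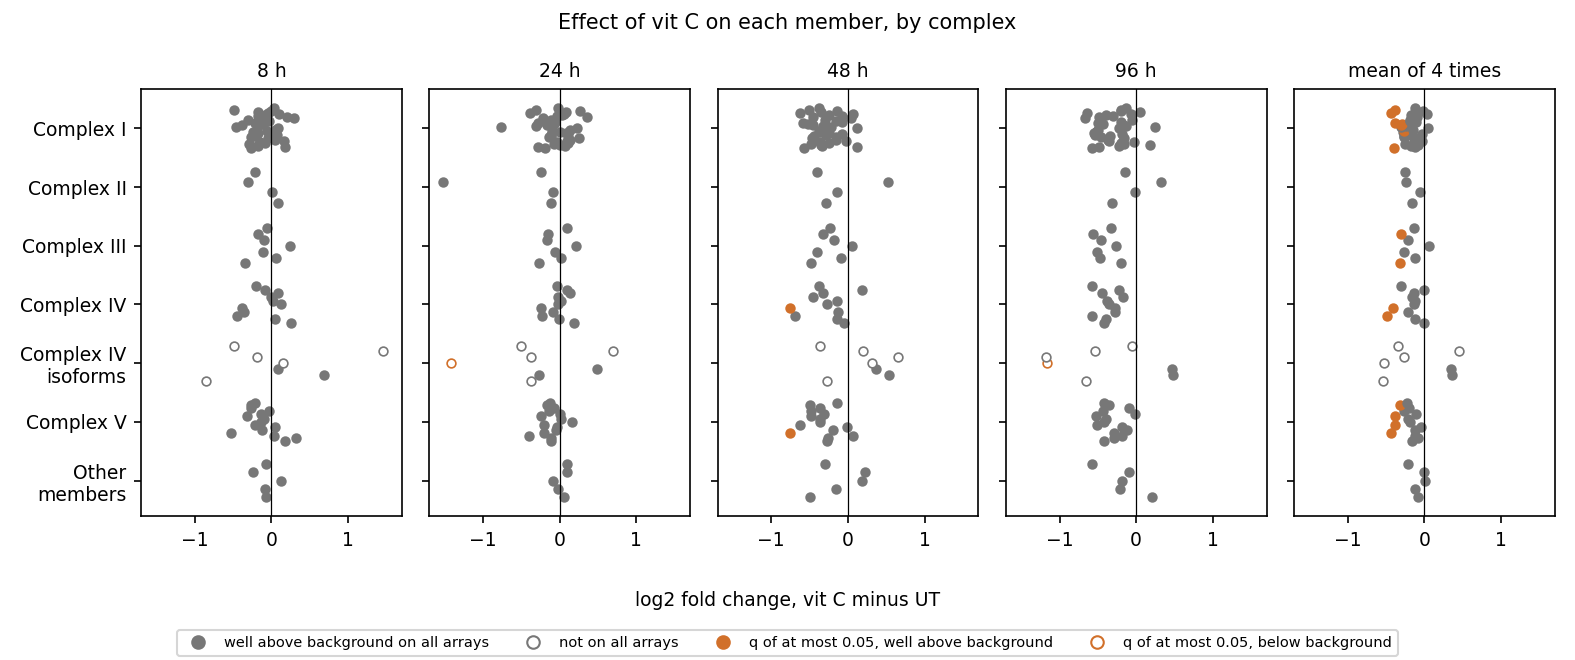
Log2 fold change (vit C minus UT) of each member, grouped by complex, at 8, 24, 48 and 96 h and averaged over the times, with q of at most 0.05 in orange and members not well above background on all arrays as open symbols. Most points lie under 0 at 48 h (71 of 86) and 96 h (79 of 86), and the orange points of the averaged panel are all under 0.

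Averaging the effect over the 4 times gave the narrowest intervals. No member reached the fold threshold, while 2.76% of all genes passed both thresholds. At q of at most 0.05 alone, 15 of 86 members fell and 0 rose, or 17.4% lower, beside 7.85% of all genes that were lower and 5.27% that were higher. Among the 81 detected members the share was 15 of 81, beside 8.81% of detected genes. By complex, 7 of 37 complex I subunits fell, 0 of 4 of complex II, 2 of 7 of complex III, 2 of 11 of complex IV and 4 of 15 of complex V. The median averaged effect was -0.17 for members, -0.11 for all genes and -0.06 for detected genes. In the 2229 genes of like brightness it was -0.13 with 74.3% under 0, beside -0.17 and 91.8% in the 61 members of that range. With quantile normalization it was -0.08 for members and -0.03 for all genes, and with normexp -0.14 and -0.17, so that by normexp the members were not lower than the genes as a whole. The count of 15 rested on few arrays. It was 7 without UT 8 h replicate 2, 8 without UT 48 h replicate 2, without either vit C 48 h array or without vit C 96 h replicate 2, and 9 without UT 48 h replicate 1, vit C 8 h replicate 1 or 2, or vit C 24 h replicate 1, beside 5% to 6.85% of all genes in these fits. It was 22 without UT 96 h replicate 3, beside 14.7% of all genes lower in the same fit. It was 9 with the slide as a random block and with the percentile taken over detected probes. COX5B, ATP5D, COX6B1, NDUFA1, ATP5G1, NDUFB9 and ATP5H passed whichever array was left out. The fold changes of the 15 members past q with all arrays were small, from -0.26 to -0.49 on the log2 scale. The 95% interval of the averaged effect lay within 1 of 0 for 80 of 81 detected members, with COX6A2 the exception, beside 92.4% of detected genes.

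COX5B and ATP5D were the 2 members in which all 9 vit C arrays were below all 10 UT arrays, or 2.33% of the 86 beside 0.0999% of all genes. COX5B, a subunit of the nuclear-encoded shell of complex IV, had levels of 6.71, 6.9 and 7.28 (lowest, median, highest) on UT arrays and 6.21, 6.41 and 6.67 on vit C arrays. Its averaged log2 fold change was -0.49 (SE 0.09, q = 0.00404 by limma, 95% interval -0.69 to -0.28). ATP5D, the delta subunit in the central stalk of ATP synthase, had levels of 2.85, 3.01 and 3.17 on UT arrays and 2.22, 2.61 and 2.8 on vit C arrays. Its averaged fold change was -0.44 (SE 0.08, q = 0.00291, interval -0.62 to -0.27), and its second probe gave -0.25. The lowest UT array of ATP5D was at 24 h and the highest vit C array was also at 24 h, so the gap between the arms was narrow.

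COX6B1 and NDUFA1 followed. COX6B1, a subunit of complex IV on the intermembrane side, had levels of 5.18, 5.45 and 5.59 on UT arrays and 4.65, 5.04 and 5.3 on vit C arrays, with an averaged fold change of -0.41 (SE 0.08, q = 0.0057). NDUFA1, a small membrane subunit of complex I, had levels of 5.64, 5.89 and 6.22 on UT arrays and 5.2, 5.51 and 5.66 on vit C arrays, with an averaged fold change of -0.4 (SE 0.09, q = 0.0104). The arms overlapped slightly in both. The second probe of NDUFA1 gave -0.23 with an unadjusted p of 0.0624.

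At single times, only ATP5D and COX6B1 among the members passed q of at most 0.05 while detected, and only at 48 h, in the fit of all 19 arrays scaled to the 75th percentile. By this rule 0.242%, 0.751%, 1.71% and 7.17% of all genes were lower at 8, 24, 48 and 96 h, beside 0, 1, 2 and 1 of 86 members. The count at 96 h depended on a single array and on the processing. Without UT 96 h replicate 3 it was 11 of 86, beside 15.6% of all genes lower by this rule in the same fit. With normexp and all 19 arrays it was 16 of 86 beside 42.4% of all genes, so the members were under the background there. With dim probes left out the counts were 4 at 48 h and 2 at 96 h, beside 4.07% and 3.51% of the genes kept. The level of ATP5D at 48 h was 3.04 and 3.17 on UT arrays and 2.22 and 2.48 on vit C arrays, a fold change of -0.75 (SE 0.17, q = 0.0297 by limma). The level of COX6B1 was 5.39 and 5.52 on UT arrays and 4.73 and 4.65 on vit C arrays, a fold change of -0.76 (SE 0.18, q = 0.0327). The arms were apart by more than the spread within them. Each call rested on 2 arrays an arm. Leaving out any of the 4 arrays at 48 h left an arm of 1, so such fits cannot test the calls. The fold changes were then -0.88 to -0.62 for ATP5D and -0.83 to -0.7 for COX6B1. With the slide as a block the fold changes were -0.78 and -0.5, with q = 0.463 and 0.786 by limma.

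**Figure D2:**
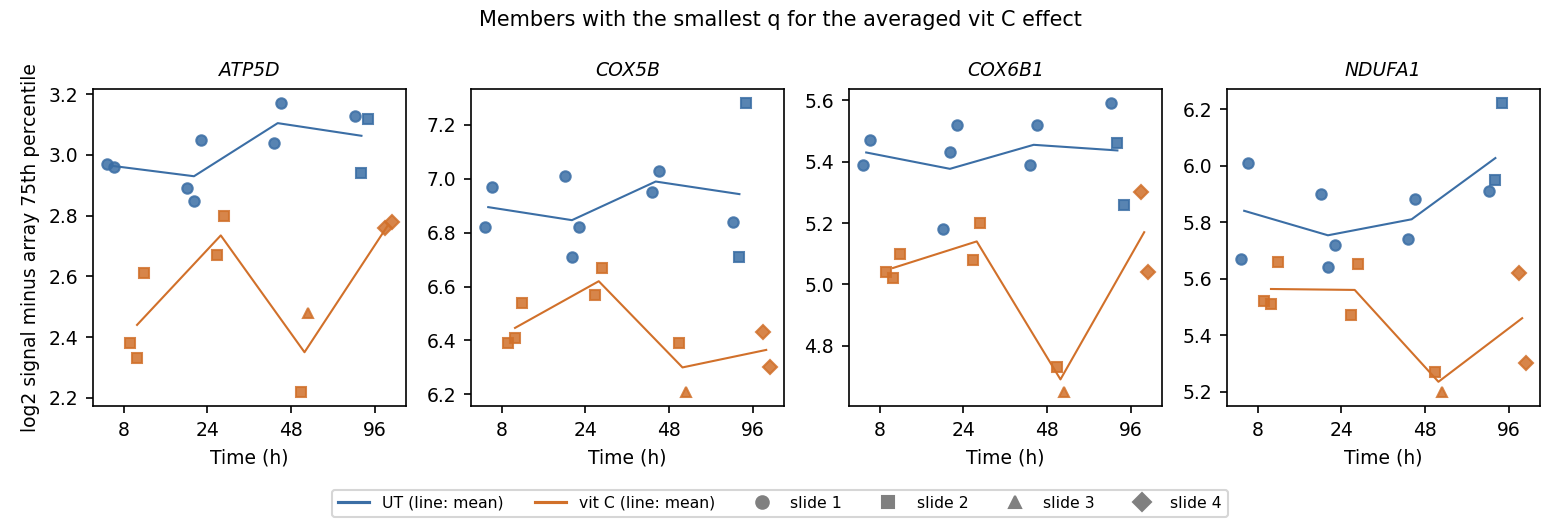
Level (log2 of the signal relative to the 75th percentile of the array) of ATP5D, COX5B, COX6B1 and NDUFA1 on each array by time, with colour for the arm. In ATP5D and COX5B all 9 vit C arrays lie below all 10 UT arrays, and in COX6B1 and NDUFA1 the arms overlap slightly.

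The stretches of 250 bases before the start sites are shown for the members that fell in the averaged effect with the lowest q and for NDUFB10, which rose with time in UT cells, because the factors NRF1, the ETS family member GABP and YY1 are known to bind the promoters of many of these genes. ATP5D is named only. Sequences are from RefSeq (GRCh38.p14), plus strand, 5′ to 3′, and capitals mark matches to NRF1 (GCGC and TGCGC with any base between), ETS (CCGGAAG) or YY1 (AANATGGCG) on either strand. COX5B lies at chr2:97645812-97646061, COX6B1 at chr19:35648073-35648322, NDUFA1 at chrX:119871582-119871831, ATP5G1 (now ATP5MC1) at chr17:48892537-48892786 and NDUFB10 at chr16:1959288-1959537.
COX5B: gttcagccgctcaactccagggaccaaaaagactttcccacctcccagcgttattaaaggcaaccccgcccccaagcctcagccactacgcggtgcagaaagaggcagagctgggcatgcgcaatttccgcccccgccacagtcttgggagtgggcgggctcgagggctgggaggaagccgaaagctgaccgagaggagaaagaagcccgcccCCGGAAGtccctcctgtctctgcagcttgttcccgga
COX6B1: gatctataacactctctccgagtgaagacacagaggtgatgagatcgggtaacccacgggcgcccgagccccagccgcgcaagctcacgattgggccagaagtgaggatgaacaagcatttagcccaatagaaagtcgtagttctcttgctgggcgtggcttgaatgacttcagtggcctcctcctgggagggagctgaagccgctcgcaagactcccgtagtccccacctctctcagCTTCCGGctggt
NDUFA1: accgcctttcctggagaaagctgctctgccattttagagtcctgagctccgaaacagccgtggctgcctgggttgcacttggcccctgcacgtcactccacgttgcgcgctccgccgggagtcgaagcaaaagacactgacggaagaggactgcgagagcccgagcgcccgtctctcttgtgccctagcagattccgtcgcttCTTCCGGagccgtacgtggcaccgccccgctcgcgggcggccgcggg
ATP5G1: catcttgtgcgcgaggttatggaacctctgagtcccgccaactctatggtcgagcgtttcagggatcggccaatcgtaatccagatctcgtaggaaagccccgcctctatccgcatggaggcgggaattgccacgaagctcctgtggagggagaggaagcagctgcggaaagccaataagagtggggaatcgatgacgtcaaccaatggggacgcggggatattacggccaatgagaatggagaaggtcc
NDUFB10: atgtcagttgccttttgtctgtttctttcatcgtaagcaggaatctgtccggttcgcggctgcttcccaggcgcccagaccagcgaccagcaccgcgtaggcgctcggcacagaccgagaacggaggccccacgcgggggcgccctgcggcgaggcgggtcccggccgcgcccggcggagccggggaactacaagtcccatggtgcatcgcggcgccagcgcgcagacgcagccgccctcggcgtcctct

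COX5B, COX6B1 and NDUFA1 each held 1 ETS match in this window, read on the other strand as CTTCCGG in COX6B1 and NDUFA1. ATP5G1 and NDUFB10 held no match to any of the 3. All 86 members matched a RefSeq gene, and 71 had such a sequence. The ETS letters were in 17 of the 71 (23.9%) beside 8.72% of 27305 promoters and 11.6% of the 15843 protein-coding ones. The NRF1 letters were in 14 (19.7%), beside 5.2% of all and 7.12% of protein-coding promoters. The YY1 letters were in 3 (4.23%), beside 1.34% of all. The SP1 letters GGGCGG were in 40 (56.3%), beside 54.4% of protein-coding promoters. Matches of different motifs may share bases, and a match describes letters, not binding.

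In complex I, 7 subunits fell in the averaged effect. NDUFS7, an iron-sulfur subunit near the ubiquinone site, fell by 0.43 (SE 0.11, q = 0.0195), with -0.62 at 48 h and -0.64 at 96 h, and its second probe gave -0.55. NDUFV2, an iron-sulfur subunit of the NADH-binding arm, fell by 0.38 (SE 0.1, q = 0.0258). The accessory membrane subunits NDUFB9 (-0.39), NDUFB7 (-0.3), NDUFB8 (-0.29) and NDUFB2 (-0.26) passed with q from 0.0119 to 0.046. NDUFS1, the largest iron-sulfur subunit, was at -0.19 (SE 0.1), and NDUFV1, which binds NADH and the flavin, was at -0.02 (SE 0.16), and neither passed. The level of NDUFV1 was 3.59 on UT 96 h replicate 3 and 4.87 and 4.96 on the other UT 96 h arrays, and without replicate 3 its averaged fold change was -0.13 and its fold change at 96 h was -0.64 (q = 0.0215 by limma) in place of -0.2. NDUFAB1, the mitochondrial acyl carrier protein, was at -0.54 (SE 0.16) at 96 h with q = 0.0502, just outside the threshold. With all arrays, 34 of the 37 subunits had a fold change under 0 at 96 h, and the median of the 37 was -0.3 there, as at 48 h. Without UT 96 h replicate 3, those above 0 at 96 h were NDUFB5 (0.85), NDUFA12 (0.33), NDUFA3 (0.27), NDUFB6 (0.12), NDUFS1 (0.08) and NDUFS6 (0.03).

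In complex II, the succinate dehydrogenase shared with the citric acid cycle, none of the 4 subunits passed when all arrays were used. SDHA, the flavoprotein, was at -0.16 (SE 0.15) in the averaged effect, SDHB, the iron-sulfur subunit, at -0.06 (SE 0.09), and the membrane anchors SDHC and SDHD at -0.24 (SE 0.25) and -0.25 (SE 0.16). The level of SDHA was 3.18 on UT 96 h replicate 3 and 4.23 and 4.43 on the other UT 96 h arrays. Without replicate 3 SDHA passed, at -0.26 (q = 0.0372 by limma) averaged and -0.71 (q = 0.0142) at 96 h in place of -0.32. SDHC varied most, with 1.32 and -0.31 on the vit C arrays at 24 h against 1.61, 2.32 and 2.15 on UT arrays, a fold change of -1.52 (SE 0.48, q = 0.137). The arms did not overlap there, but a single array carried most of the difference. At 96 h SDHB and SDHD were at -0.01 and -0.14, and at 0.13 and 0.25 without UT 96 h replicate 3.

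In complex III, UQCRH, the hinge subunit, in the averaged effect fell by 0.31 (SE 0.09, q = 0.0428) and UQCR, a small subunit now called UQCR11, by 0.32 (SE 0.09, q = 0.0372). The core subunits UQCRC1 and UQCRC2 were at -0.27 (SE 0.15) and 0.06 (SE 0.11), and UQCRFS1, the Rieske iron-sulfur protein, and UQCRB, a ubiquinone-binding subunit, were at -0.22 (SE 0.1) and -0.12 (SE 0.1), none past the threshold with all arrays. Without UT 96 h replicate 3 UQCRC1 passed, at -0.37 (q = 0.00818 by limma) averaged and -0.91 (q = 0.00673) at 96 h in place of -0.51. All 7 subunits were under 0 at 96 h, with a median of -0.46.

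In complex IV, the averaged fold changes of the other subunits were closer to 0 than those of COX5B and COX6B1. COX4I1 was at -0.01 (SE 0.09), COX5A at -0.12 (SE 0.1), COX6C at -0.13 (SE 0.1) and COX7C at -0.14 (SE 0.1), all nuclear shell subunits, and none passed. The 4 probes of COX5A went in both directions, with -0.12 for the brightest and -0.35, 0.74 and 0.06 for the others (unadjusted p of 0.0085, 0.0136 and 0.648), so its direction was not settled. NDUFA4, counted here because it is a subunit of complex IV despite its name, was at -0.3 (SE 0.09) with q = 0.0513, and passed without UT 96 h replicate 3 (q = 0.039). All 11 subunits were under 0 at 96 h, with a median of -0.38. COX4I1 differed in sign between times, from 0.26 (SE 0.18) at 8 h to -0.42 (SE 0.18) at 96 h, neither past the threshold.

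The isoform pairs of complex IV held no member whose brightest probe passed in the averaged effect, other than COX6B1. COX6A1, the ubiquitous subunit 6A, was at -0.21 (SE 0.1), and its heart and muscle counterpart COX6A2 was at 0.36 (SE 0.39), the highest averaged fold change of the detected members. The level of COX6A2 was 2.93 on UT 96 h replicate 3 and between 5.26 and 6.81 on the other 18 arrays, and without that array its averaged fold change was 0.08, below the 0.39 of COX6B2, and its fold change at 96 h was -0.62 in place of 0.48. COX6B2 was at 0.35 (SE 0.19). COX7A2, COX7B and COX8A, the ubiquitous forms of subunits 7A, 7B and 8, were at -0.12 (SE 0.1), -0.16 (SE 0.08) and -0.01 (SE 0.1). The dimmer probe of COX7B, also above background on all arrays, gave -0.62 averaged (unadjusted p of 2e-04) and -1.02 at 96 h (0.000918), where the brighter one gave -0.17. COX4I2, the isoform known for its link to low oxygen, and NDUFA4L2, a relative of NDUFA4 with the same link, were above background on part of the arrays and passed in no comparison of vit C with UT. COX8C, a testis isoform of subunit 8, was below background on all vit C and UT arrays at 8, 24 and 48 h. COX7B2, a testis isoform of subunit 7B, was below it on all arrays.

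In complex V, the averaged level of ATP5G1 fell by 0.38 (SE 0.09, q = 0.0112), with levels at 48 h of 4.1 and 4.13 on UT arrays and 3.53 and 3.45 on vit C arrays, which did not overlap. ATP5G1, ATP5G2 and ATP5G3 encode the same mature subunit c of the rotor ring, and the other two were at -0.19 (SE 0.09) and -0.21 (SE 0.1) and did not pass. ATP5H, in the peripheral stalk, fell by 0.39 (SE 0.09, q = 0.0138) and ATP5L, a membrane subunit, by 0.32 (SE 0.09, q = 0.034). The catalytic head subunits ATP5A1 (alpha) and ATP5B (beta) were at -0.16 (SE 0.09) and -0.09 (SE 0.13), and ATP5O, of the peripheral stalk, was at -0.23 (SE 0.08), none past the threshold, although ATP5O passed without UT 96 h replicate 3 (q = 0.0451). With all arrays, all 15 subunits were under 0 at 96 h, with a median of -0.36, as at 48 h. Without UT 96 h replicate 3, ATP5C1 (0.25), ATP5J2 (0.15), ATP5I (0.06) and ATP5F1 (0.04) were above 0 at 96 h.

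For most members the intervals of the fit without slide bounded the difference between the arms, which slide can share in. The 95% interval of the fold change lay within 1 of 0 on the log2 scale for 78, 76, 67 and 72 of 81 detected members at 8, 24, 48 and 96 h. The shares of members were 96.3%, 93.8%, 82.7% and 88.9%, beside 71.5%, 67.8%, 58.8% and 65.5% of detected genes. The median width of the members' intervals on each side was 0.41, 0.41, 0.45 and 0.41, against 0.21 for the averaged effect. In detected genes it was 0.54, 0.54, 0.59 and 0.54, against 0.27.

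**Figure D3:**
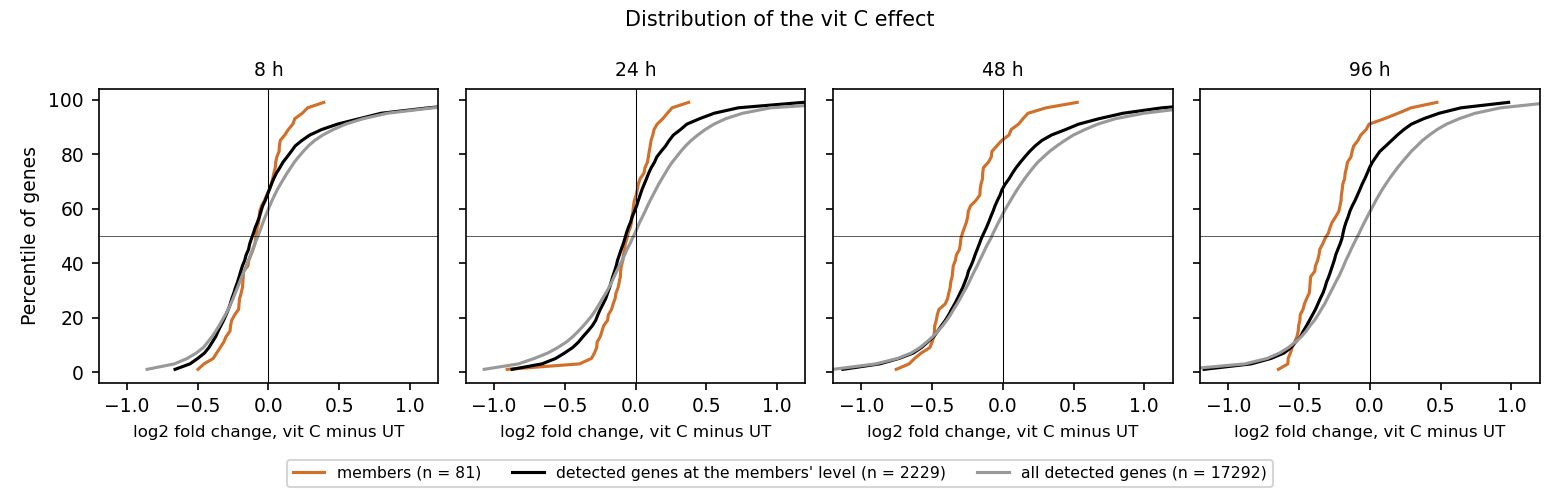
Percentile curves of the log2 fold change (vit C minus UT) for the 81 detected members, 2229 detected genes of like brightness and 17292 detected genes, with 1 panel for each time. Around the median the member curve lies lower than both others at 48 and 96 h (near -0.3, against -0.14 and -0.2 for genes of like brightness). It lies close to them at 8 and 24 h. The lowest values, not drawn, were -3.93 and -3.09 for detected genes at 48 and 96 h, against -0.76 and -0.67 for members.

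Slides gave a further comparison. On slide 2, the 6 vit C arrays (8, 24 and 48 h) were all lower than both UT arrays (96 h) in 40 of 86 members, or 46.5%, beside 12.2% of all genes, and higher in 0, beside 7.01%. Time and treatment cannot be told apart there. Among vit C arrays of slide 2, 48 h minus 8 h had a member median of -0.24 beside 0.01 for all genes, and 71 of 86 members were lower, beside 15189 of the 31033 genes. A single vit C 48 h array lay on that slide, so this difference has no replicate at 48 h. With slide as a block in the fit, 0 members were called at 8, 24 or 48 h, beside 0.0193%, 0.058% and 0.393% of all genes.

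The second comparison followed the members over time in UT cells, from 8 to 96 h after differentiation and the change of medium. Of all genes, 12.3% were called, and 2 of 86 members were, NDUFB10 and COX8C. NDUFB10, an accessory membrane subunit of complex I, had levels of 3.67 and 3.86 at 8 h, 3.83, 3.52 and 3.87 at 24 h, 4.15 and 4.34 at 48 h, and 4.87, 4.72 and 5.06 at 96 h. The values at 96 h were above those of every earlier UT array, and NDUFB10 rose by 1.12 (SE 0.17, q = 0.000343 by limma) from 8 to 96 h. On slide 1 alone the difference was 1.1. In vit C cells, whose arrays at 8 and 96 h lay on different slides, its levels were 3.52, 3.51 and 3.73 at 8 h and 4.4 and 4.26 at 96 h, a rise of 0.74 (SE 0.17, q = 0.00606). No member passed the test of a difference between the arms over time. By the F test over all times, 9 of 86 members changed in UT cells and 12 in vit C cells, beside 25.2% and 35.1% of all genes.

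COX8C had 2 of 3 UT arrays above background at 96 h (levels -5.34, -3.82 and -4.73) and 0 of 2 at 8 h (-7 and -7.29). At 96 h it was at least 1.5-fold higher (q = 0.00126 by limma), against the lowest signal well above background on the arrays at 8 h.

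At q of at most 0.05 without the fold threshold, 6 members were higher and 2 lower at 96 h than at 8 h in UT cells, beside 9.5% and 8.26% of all genes, so these shares were close to or under the background. NDUFA2, an accessory subunit of complex I, rose by 0.82 (SE 0.17, q = 0.00393), from 4.14 and 4.37 at 8 h to 4.95, 5.2 and 5.09 at 96 h, and its second probe gave 0.66. NDUFB1 and NDUFA10, also of complex I, rose by 0.72 (SE 0.18, q = 0.011) and 0.64 (SE 0.19, q = 0.031), and COX4I1 rose by 0.56 (SE 0.18, q = 0.0486), where its other probes gave 0.32 and -0.11. The arrays of NDUFA2, NDUFB1, NDUFA10 and COX4I1 did not overlap between 8 and 96 h. These members were picked by q on the same arrays, and the share of all genes without overlap was not counted. NDUFB9 fell by 0.74 (SE 0.18, q = 0.00939), from 8.03 and 8.07 to 7.18, 7.35 and 7.41, and NDUFB8 by 0.54 (SE 0.17, q = 0.0418), so complex I held members that moved in both directions. UT 8 h held 2 arrays, so leaving out either left an arm of 1, and such fits cannot test the calls. Over the fits without 1 array of either group, fold changes were 0.71 to 0.94 for NDUFA2, 0.55 to 0.89 for NDUFB1 and 0.53 to 0.74 for NDUFA10. They were 0.45 to 0.65 for COX4I1, -0.79 to -0.67 for NDUFB9 and -0.64 to -0.45 for NDUFB8. The call was lost without UT 96 h replicate 3 for NDUFA10 (q = 0.0623) and COX4I1 (q = 0.0931). It was lost without UT 96 h replicate 2 for COX4I1 (q = 0.0676) and NDUFB8 (q = 0.0691), and without replicate 1 for NDUFB8 (q = 0.103). Replicates 2 and 3 of UT 96 h lay on another slide than the UT 8 h arrays. With the slide as a block the calls were kept for NDUFB10 (1.1, q = 0.0129) and NDUFB9 (-0.87, q = 0.0404), and lost for NDUFA2 (0.7, q = 0.102), NDUFB1 (0.57, q = 0.2), NDUFA10 (0.52, q = 0.287), COX4I1 (0.38, q = 0.446), NDUFB8 (-0.73, q = 0.0722) and COX8C (q = 0.051).

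**Figure D4:**
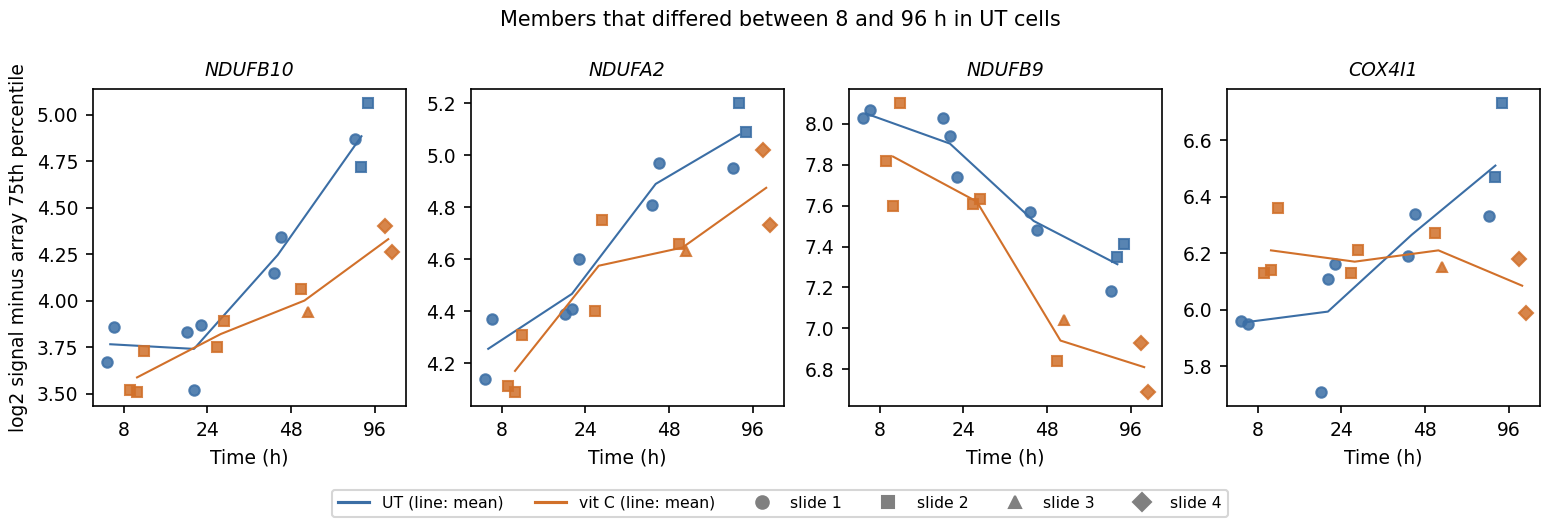
Level (log2 of the signal relative to the 75th percentile of the array) of NDUFB10, NDUFA2, NDUFB9 and COX4I1 on each array at 8, 24, 48 and 96 h, with colour for the arm. From 8 to 96 h NDUFB10 rises and NDUFB9 falls in both arms (by 1.12 and -0.74 in UT cells), and COX4I1 rises by 0.56 in UT cells.

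In vit C cells, 8 members were lower and 0 higher at 48 h than at 8 h at q of at most 0.05, beside 7.16% and 8.52% of all genes. From 8 to 96 h, 21.1% of all genes were called, and 3 of 86 members were, all lower. The vit C 8 h arrays all lay on slide 2 and both 96 h arrays on slide 4, so time and slide cannot be told apart in this comparison. NDUFB9 fell by 1.03 (SE 0.18, q = 0.000699), from 7.82, 7.6 and 8.1 to 6.93 and 6.69. NDUFAF1, the complex I assembly factor, fell by 1.12 (SE 0.21, q = 0.00109), from 3.6, 3.63 and 3.58 to 2.63 and 2.34. The arrays at the 2 times did not overlap in either, which adds little because both were picked on the same arrays. COX7A1, below background on all arrays, was the third. NDUFA2 rose by 0.71 (SE 0.17, q = 0.00866), NDUFB7 by 0.53 (SE 0.17, q = 0.0314) and NDUFB1 by 0.5 (SE 0.18, q = 0.0467), and with NDUFB10 these were the 4 members that rose at q of at most 0.05, beside 12.7% of all genes. Members lower by this rule numbered 8, beside 18.1% of all genes, and included NDUFB8 (-0.84), UQCRC1 (-0.85) and COX6C (-0.65). The comparisons share arrays with those of vit C against UT.

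The median change of the 86 members in UT cells from 8 to 96 h was 0.13, beside 0.02 for all genes, and 0.04 on slide 1 alone. UT 96 h replicate 3 stood apart from the other 2 arrays of its group. The detected members on it differed from the mean of the others by a median of 0.22, beside 0.1 for the genes detected on all arrays and -0.16 for all genes, and by over 1 in 8 of 81 detected members (9.88%, beside 22.5% of detected genes). The largest such differences were -3.29 in COX6A2, 1.84 in NDUFB5, 1.52 in SDHC, -1.32 in NDUFV1 and 1.27 in ATP5C1. Without this array the member median of UT 96 h minus UT 8 h was 0.08, as was that of all genes, and the median of vit C minus UT at 96 h was -0.32. The summed level of the markers of other cell types was 26.3 and 27 at UT 8 h and 42.3 to 63.4 at UT 96 h. Its part in the change over time was not tested.

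Other genes of the mitochondrion were read from lists of carriers, assembly factors, citric acid cycle enzymes and regulators. In the averaged vit C effect the medians of these lists were -0.15, -0.14, -0.11 and -0.07, beside -0.11 for all genes. Among the 12 carriers and related genes, SLC25A4, the ATP and ADP exchanger of heart and muscle, fell by 0.48 (q = 0.00429), with -0.85 (q = 0.0173) at 96 h. ATPIF1, the inhibitor of ATP synthase, fell by 0.52 (q = 0.00223), and was at -0.64 (q = 0.0435) at 96 h and at 0.7 (q = 0.0143) from 8 to 96 h in UT cells. Of 17 assembly factors, 12 cycle enzymes and 11 regulators, none passed q of at most 0.05 in the averaged effect. By this rule 2 of the 12 carriers were lower, beside 7.85% of all genes lower and 5.27% higher. At 24 h 1 carrier was lower, beside 0.751% of all genes. At 96 h 2 carriers, 1 assembly factor and 1 regulator were lower and 1 regulator higher, beside 7.17% and 2.46% of all genes. At 96 h NUBPL, which delivers iron-sulfur clusters to complex I, fell by 0.94 (q = 0.0487), GABPA, a subunit of the ETS factor GABP, rose by 0.78 (q = 0.0484), and ESRRA, an orphan nuclear receptor, fell by 0.69 (q = 0.0447). The regulator PPRC1, a relative of PGC-1alpha, fell by 0.91 (q = 0.000642) in UT cells from 8 to 96 h.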

How the data were processed

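RNA of 19 THP-1 cultures was hybridised by the authors to one-colour Agilent arrays. The deposited scanner files, from Agilent Feature Extraction, hold 1 intensity per spot, already background-corrected. Their headers give 10.5.1.1 as the grid placement version, and the paper's methods name a different version of the software. The deposited log2 value table equals the values used here up to a constant per array. Processed signals were averaged over spots of a probe, control spots were left out, and log2 values minus the 75th percentile of each array were formed. The brightest probe stood for a gene. limma 3.58.1 (R 4.3.3) fitted the 8 group means over 19 arrays, with Benjamini-Hochberg adjustment over 31033 genes. Calls needed a log2 fold change of 1 or more in size with q not above 0.05. Members and lists were chosen with earlier results of these data known. Members were named if called, by role, or as the 3 largest averaged rises and falls of detected members; members past q alone are also named. RefSeq promoters were searched and figures drawn with Python 3.11.15 and matplotlib 3.10.9. On simulated data at 48 h (31033 genes), 37.3% of genes changed by 1.5 and 86.4% of those changed by 3 (log2) were called, and 0% of those changed by 0.5, which lies under the fold threshold. Alternatives covered background correction, normalization, probes, slide, the study's own test and left-out arrays. Some single genes are not reported here.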

Additional observations from a re-analysis of the deposited data

How the results depend on the processing

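Among the members' medians and the members past q that were refitted under the alternatives, none changed sign other than the median at 24 h, which was between -0.1 and 0.01 when an array was left out (0.01 without vit C 24 h replicate 1). The single member called at 24 h and at 96 h (COX7A1, below background) was lost at both times with quantile normalization, normexp, the percentile over detected probes, dim probes left out, the methods' t-test and an intensity trend in limma (0 and 0), and at 24 h with the slide as a fixed or a random block (0). The methods' probe rule called 2 at 96 h (COX7A1 and COX7B, beside 12.8% of the genes it kept). With no minimum fold change the counts were 2 at 48 h, 15 in the averaged effect and 8 for UT 96 h minus 8 h. The 2 members called over UT time became 1 (NDUFB10) with normexp, without dim probes and with the slide as a block (beside 7.26%, 17.3% and 9.03% of genes), and 0 by the methods' t-test after adjustment. At the unadjusted threshold of that test, members called numbered 1, 0, 0 and 2 at 8, 24, 48 and 96 h, and 2 over UT time, beside 4.14%, 3.66%, 4.7%, 7.88% and 9.86% of all genes; those at 8 and 96 h (COX8C, COX7B2 and COX7A1) were not detected on all arrays.

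The members' median at 96 h (-0.33) was -0.15 with quantile normalization, -0.23 with the percentile over detected probes and -0.24 without the UT 96 h arrays of slide 2, which also called 2 members (COX6B2 and UQCRC1) beside 9.04% of all genes; this alternative was added after seeing the data. The averaged median was -0.08 with quantile normalization. With the slide as a fixed block the medians were -0.29, -0.24 and -0.38 at 8, 24 and 48 h. Over UT time the median was 0.04, as on slide 1 alone (0.04, also added later). In this fit the difference between slides 1 and 2 came from the UT 96 h arrays alone. The block could not be fitted at 96 h or for the averaged effect. Members changing over UT time by the F test were 9 (25.2% of all genes), 17 with quantile normalization (27%) and 3 with the slide block (15.7%). Causes were not tested.

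Leaving out each array in turn gave medians of -0.17 to -0.01 at 8 h, -0.32 to -0.24 at 48 h, -0.41 to -0.22 at 96 h, -0.2 to -0.15 averaged and 0.06 to 0.21 over UT time. Calls were 0 to 1 at 24 h, 0 to 2 at 96 h and 2 over UT time, and the F test over UT time gave 6 to 12. At 96 h, members lower at q alone numbered 1 (7.17% of all genes), 16 with normexp (42.4%) and 11 without UT 96 h replicate 3 (15.6%). The averaged count at q alone (15) was 7 to 22 in these runs, 11 with quantile normalization (6.47% of all genes), 14 with normexp (11.1%), 9 with the percentile over detected probes (5.86%) and 9 with the slide as a random block (5.57%). Replicate numbers did not pair the samples (correlations of -0.31 to 0.13). With the replicate block the medians were -0.11, -0.03, -0.28, -0.29 and -0.16 and 0.12 over UT time, calls were unchanged in number, the averaged count at q alone was 10 (6.57%) and the F test gave 7 (21.8%). Members that passed no test were not refitted one by one under every alternative, and small values among them can turn: the averaged COX4I1 was -0.01, and 0.02 without UT 96 h replicate 3.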
